A study of Homo sapiens with 6 samples.

Results

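The genes examined here encode 5 receptor tyrosine kinase family members (IGF1R, INSR, EGFR, ERBB2 and ERBB3) and 2 adaptor proteins (IRS1 and IRS2) that pass their signals to phosphoinositide 3-kinase (PI3K). For these 7 genes, every H3K4me2 region that overlapped the gene body (hg19) or the 5 kb on either side by at least 1 bp was taken, whatever its level. There were 88 such regions of 101165 in the vehicle list, 115 of 129776 at GSK 4 h and 107 of 128552 at GSK 24 h. When regions that overlapped between lists were joined, they formed 129 joined regions of the 151839 on chromosomes 1 to 22, X and Y.

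H3K4me2, dimethylated lysine 4 of histone H3, marks promoters and enhancers, and its positions were mapped by sequencing of immunoprecipitated chromatin (ChIP-seq) from LNCaP, a human prostate cancer cell line that responds to androgen. The cells stood in medium with 5% charcoal-stripped serum (CSS), from which steroids are removed, for 3 days in all 3 groups. The vehicle group (2 samples) received no GSK2879552, and the GSK 4 h and GSK 24 h groups (2 samples each) received this inhibitor of the histone demethylase LSD1 (KDM1A) for 4 and 24 h. The sample labels of both GSK groups also name the androgen DHT, which the vehicle label and the treatment protocol do not, so an effect of DHT and an effect of GSK2879552 cannot be told apart. The authors deposited 1 list per group, made from both replicates, so no value below has a replicate error and no test between groups was possible. Intervals given below for fragment counts and their ratios cover counting error only. Wilson intervals for shares of regions treat the joined regions as independent draws. The labelled cell type was not checked against its markers, since no gene annotation of the hg19 build was used.

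IGF1R and INSR are the receptors for insulin-like growth factors and insulin, and IRS1 and IRS2 are the docking proteins that these receptors phosphorylate so that the p85 subunit of PI3K can bind. EGFR binds epidermal growth factor and related ligands, ERBB2 has no known ligand and works as a partner of the other ERBB receptors, and ERBB3 binds neuregulins, has little kinase activity of its own and carries many docking sites for p85. LSD1 removes methyl groups from mono- and dimethylated H3K4, and in prostate cancer cells it also acts as a partner of the androgen receptor.

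The strongest signals and the deepest differences described below lay at gene starts, so the promoter letters of 3 genes are shown: IRS2 and IGF1R, where H3K4me2 was high in vehicle and low after GSK2879552, and ERBB2, where it was not. Each is the 250 bases before the annotated start in RefSeq, given in the direction of transcription, with every CG dinucleotide in capitals. Coordinates are GRCh38.p14, a different build from that of the regions, and were not converted. The annotated starts of these letters may therefore differ from the hg19 gene starts used for the regions. IRS2 is on the minus strand at chr13:109786584-109786833, IGF1R on the plus strand at chr15:98648289-98648538 and ERBB2 on the plus strand at chr17:39687844-39688093.
IRS2: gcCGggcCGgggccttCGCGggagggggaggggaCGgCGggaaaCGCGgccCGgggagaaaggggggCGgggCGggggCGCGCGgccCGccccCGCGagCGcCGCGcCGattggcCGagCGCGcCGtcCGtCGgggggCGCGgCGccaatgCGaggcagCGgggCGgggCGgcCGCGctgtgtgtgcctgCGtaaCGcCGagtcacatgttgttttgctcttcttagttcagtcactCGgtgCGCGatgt
IGF1R: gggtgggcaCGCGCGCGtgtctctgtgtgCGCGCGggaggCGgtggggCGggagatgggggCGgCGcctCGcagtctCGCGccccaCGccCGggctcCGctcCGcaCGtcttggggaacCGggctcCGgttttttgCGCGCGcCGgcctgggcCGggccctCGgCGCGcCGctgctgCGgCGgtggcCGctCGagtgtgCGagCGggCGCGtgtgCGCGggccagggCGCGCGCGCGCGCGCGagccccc
ERBB2: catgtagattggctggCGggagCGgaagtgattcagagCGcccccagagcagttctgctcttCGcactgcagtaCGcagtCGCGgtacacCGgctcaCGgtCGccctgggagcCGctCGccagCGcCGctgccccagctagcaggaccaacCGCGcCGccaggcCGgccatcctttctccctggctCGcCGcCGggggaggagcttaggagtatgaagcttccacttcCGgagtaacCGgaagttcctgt

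These windows held 42 CG dinucleotides for IRS2, 48 for IGF1R and 23 for ERBB2, beside a median of 11 over the 35116 RefSeq promoters. IRS1 had 39, INSR 28 and EGFR 25 (a second, internal EGFR promoter in the table had 1). ERBB2 therefore had the fewest of the 6 genes found in the table, counting each gene's first promoter, while still standing above the median. The GC box was searched as GGGCGG on both strands, and matches that overlap another match were not counted again. It had 3 matches in the IRS2 window, 2 in that of IGF1R, 4 in that of IRS1, 3 in that of INSR and 2 in that of EGFR. Of all promoters, 42.6% had at least 1. The ERBB2 window had 0 matches, which says only that these letters are not in the window. The 300-base table entry of ERBB2, which runs on past the start, shares 136 bases with that of PGAP3, a gene transcribed the other way, so H3K4me2 at this ERBB2 start cannot be told apart from that at the start of PGAP3. The first EGFR entry likewise shares 194 bases with that of LOC105375284, so the same holds for the EGFR start and that locus. ERBB2 is also known to be transcribed from a promoter inside the gene body as defined here, whose hg19 position was not looked up, so the letters above and the start-site values below describe the upstream ERBB2 start and may not describe the ERBB2 promoter in use in these cells.

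The following quantities describe a region here. The summit fragments are the whole number of ChIP fragments that covered the highest point of the region, recovered from the deposited fold and p-value. The height divides the summit fragments by its list's genome-wide background, which was 2.08 fragments for vehicle, 1.88 for GSK 4 h and 1.97 for GSK 24 h. A further quantity is the number of tags in the 10 kb around the summit, for which 94.3, 101.2 and 89.8 tags would be the genome-wide expectation in the vehicle, GSK 4 h and GSK 24 h lists. The highest summits anywhere in the 3 lists were 434, 364 and 431 fragments, and the median summits 23, 21 and 21.

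At the start of IGF1R, the highest of the regions within 1 kb of the gene start had 253 summit fragments in vehicle, 122 at GSK 4 h and 59 at GSK 24 h. Its height was 121 (95% interval 107 to 137) in vehicle, 64.8 (53.8 to 77.4) at 4 h and 30.0 (22.8 to 38.7) at 24 h. On the log2 scale the height was lower by 0.91 at 4 h (-0.91, interval -1.23 to -0.59) and by 2.02 at 24 h (-2.02, interval -2.45 to -1.60). The order was vehicle, GSK 4 h, GSK 24 h, with no overlap of the intervals. The tags in 10 kb around the summit were 2569, 1534 and 960 in the same order. Within 1 kb of this start there were 3 regions in vehicle, 2 at 4 h and 1 at 24 h. A little further upstream, chr15:99190235-99191412 had the highest vehicle summit of the whole IGF1R window, with 316 fragments against 86 and 63 (log2 height -1.73 and -2.24).

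INSR showed the same order. The highest start-site summit had 270, 114 and 58 fragments, and its height was 129.5, 60.6 and 29.5. The log2 difference from vehicle was -1.10 (-1.43 to -0.78) at 4 h and -2.13 (-2.57 to -1.72) at 24 h. These summits were not at the same place, at 116, 607 and -731 bp from the start (positive inside the gene). The vehicle list had 1 region across the start, where both GSK lists had 2 within 1 kb. At 24 h neither overlapped the start itself, the nearest being 158 bp away. The tags in 10 kb were 1348, 848 and 509.

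By the highest summit within 1 kb of the start, the adaptor genes had the deepest differences at 4 h, although single IGF1R regions differed by more (-1.73 above, and -1.74 at chr15:99192230-99192752). At IRS1, the start-site summit had 297 fragments in vehicle, 92 at 4 h and 62 at 24 h, a log2 height of -1.54 (-1.90 to -1.20) and -2.18 (-2.59 to -1.78) relative to vehicle. At IRS2 it had 336, 105 and 50 fragments, and the log2 difference was -1.53 (-1.86 to -1.21) at 4 h and -2.66 (-3.12 to -2.23) at 24 h. By the same measure the IRS2 start had the highest vehicle height of the 7 genes (161) and the lowest at 24 h (25.4). For IRS2 too these summits are not at the same place, since the vehicle summit lay 1011 bp inside the gene and both GSK summits lay upstream of the start. Followed region by region, chr13:110436731-110438993, which spans the start, had 336, 93 and 59 fragments (log2 height -1.71 and -2.43), and chr13:110439248-110440257, upstream, had 220, 105 and 50 (-0.92 and -2.05). At 24 h the highest summit of the first of these lay 1957 bp inside the gene, in a part not within 1 kb of the start. Its height was 30.0, above the 29.5 at INSR, so the lowest place of IRS2 at 24 h depends on the 1 kb limit. Both IRS2 regions were thus lower in the GSK lists wherever the summit was placed. The tags in 10 kb were 3313, 1186 and 499 at IRS2 and 928, 583 and 287 at IRS1.

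Within the ERBB family, the EGFR start resembled the starts of the insulin receptor group, and the ERBB3 start and the upstream ERBB2 start did not. The EGFR start-site summit had 292, 113 and 66 fragments, with log2 heights of -1.22 (-1.55 to -0.90) and -2.06 (-2.47 to -1.67) relative to vehicle, and the tags in 10 kb were 1496, 934 and 444. The ERBB2 summit had 69 fragments in vehicle, 76 at 4 h and 88 at 24 h. Its log2 height was 0.29 (-0.20 to 0.78) and 0.44 (-0.04 to 0.91) relative to vehicle, so both intervals included 0, and the tags in 10 kb were 535, 642 and 600. The ERBB3 summit had 104, 126 and 88 fragments, with a log2 difference of 0.42 (0.04 to 0.81) at 4 h and -0.16 (-0.58 to 0.27) at 24 h. Of these intervals of ERBB2 and ERBB3, that of ERBB3 at 4 h alone lay above 0. At ERBB3 the tags in 10 kb were 797, 1274 and 765.

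**Figure D1:**
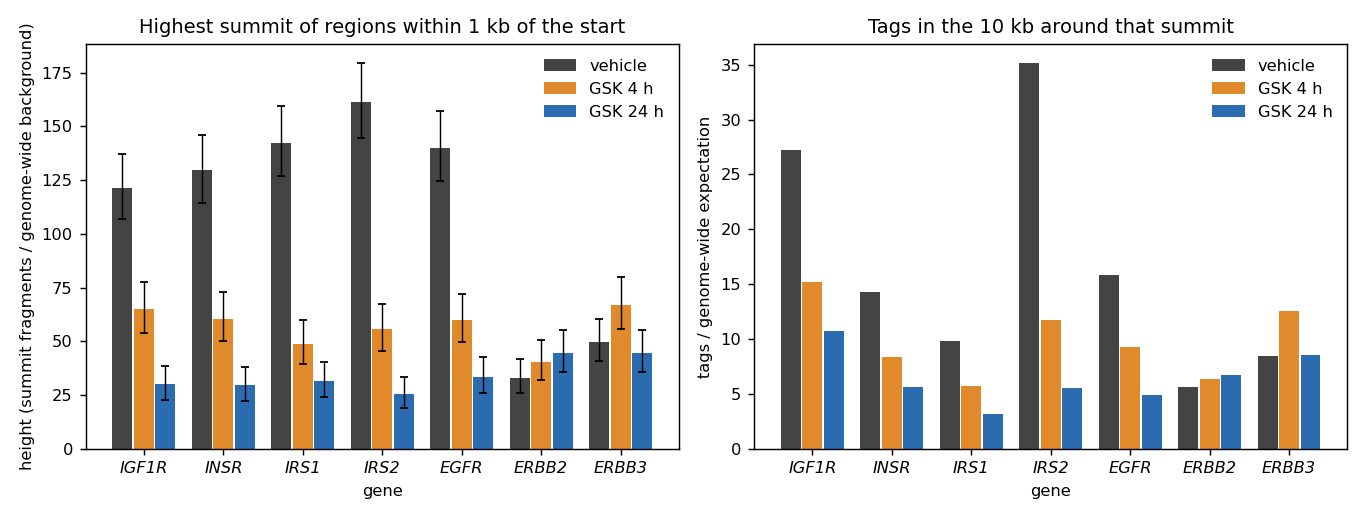
H3K4me2 at the starts of the 7 genes in the vehicle, GSK 4 h and GSK 24 h lists (1 list per group, from 2 samples). Left, height of the highest summit of the regions within 1 kb of the start, with 95% Poisson intervals for counting error; right, tags in the 10 kb around that summit over the genome-wide expectation. IGF1R, INSR, IRS1, IRS2 and EGFR stood at 121 to 161 in vehicle and at 25.4 to 33.6 at 24 h. The upstream ERBB2 start and the ERBB3 start stood at 33.1 and 49.9 in vehicle and both at 44.8 at 24 h.

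Thus 5 of the 7 start-site summits were at least 2-fold lower at 24 h and 4 of 7 at 4 h (IGF1R, at 53.4% of its vehicle height, missed the mark at 4 h). At 24 h they stood at 24.7% of the vehicle height for IGF1R, 22.8% for INSR, 22.1% for IRS1, 15.8% for IRS2 and 24.0% for EGFR. Between 4 and 24 h the log2 height differed by -1.11 at IGF1R, -1.04 at INSR, -0.63 at IRS1, -1.13 at IRS2 and -0.84 at EGFR, and each of these intervals lay below 0. The 5 genes differed little among themselves at 24 h, where the heights of IGF1R, INSR, IRS1, IRS2 and EGFR had intervals that all overlapped. The upstream ERBB2 start and the ERBB3 start, the lowest of the 7 in vehicle, were the highest at 24 h. Their intervals of 35.9 to 55.1 overlapped those of IGF1R, INSR, IRS1 and EGFR but not that of IRS2 (18.9 to 33.5). The IRS2 interval and its 15.8% rest on the upstream region at 24 h, whereas the vehicle summit lay in the region across the start. That region had 59 fragments at 24 h (height 30.0). The interval for 59 fragments, as at IGF1R, is 22.8 to 38.7 and does overlap. The highest vehicle region of ERBB2, 12 kb inside the body and called in vehicle only, is not part of these start-site values and is described below.

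This pattern at the 5 starts followed the height in vehicle, as it did across the genome. Of the regions present in all 3 lists with a vehicle height of at least 100, 95.1% were at least 2-fold lower at 24 h and 83.0% at 4 h. The 7 regions of this height among the 7 genes (all within 5 kb of the starts of IGF1R, INSR, IRS1, IRS2 and EGFR) were lower by that much in 7 of 7 cases at 24 h and 5 of 7 at 4 h. Their median log2 height was -2.13 at 24 h and -1.22 at 4 h, beside -1.91 and -1.33 over all 4108 such regions. The difference at these starts was therefore close to that of equally high regions elsewhere and not particular to these genes. The same held on each chromosome, where between 93.7% and 98.7% of such regions on chromosomes 2, 7, 12, 13, 15 and 17 were at least 2-fold lower at 24 h, and 91.2% on chromosome 19.

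The fold enrichment in the deposited lists gave another picture of the same starts. This fold sets the summit against the signal in the 10 kb around it in the same library, and that surrounding signal was lower as well. For IRS2 the deposited fold was 4.54 in vehicle, 4.6 at 4 h and 4.28 at 24 h, almost level, while the summit fragments were 336, 105 and 50. For EGFR it was 8.60, 6.20 and 6.25, for INSR 8.80, 6.86 and 4.86, for IRS1 13.9, 7.85 and 8.65, and for IGF1R 4.40, 4.16 and 2.72. By the deposited fold, 0 of 7 start-site summits were at least 2-fold lower at either time. The fold of ERBB2 was 5.46, 5.95 and 6.29 and that of ERBB3 5.64, 5.14 and 5.01. The 2-fold differences at the 5 starts thus rest on a scale that sets each list against its own genome-wide background. Across the genome, 83.0% of equally high regions were lower by that much at 4 h and 95.1% at 24 h. A lower enrichment of either whole GSK library and a lower H3K4me2 at these starts therefore cannot be told apart with these lists. Ranked by height within each list, IGF1R stood at percentile 97.1 in vehicle, 98.6 at 4 h and 89.1 at 24 h. In the same order INSR stood at 97.5, 97.9 and 88.6, and IRS1 at 98.2, 94.8 and 90.4. IRS2 stood at 99.0, 96.8 and 84.1, and EGFR at 98.1, 97.8 and 92.0.

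Away from the starts, where most regions were lower in vehicle, the picture was different. Of the 129 joined regions, 40 had exactly 1 region in each list, and 34 of these 40 lay more than 5 kb from the start. Over those 34, the median log2 height relative to vehicle was 0.36 at 4 h and 0.20 at 24 h, with values between -0.45 and 0.94 at 4 h and between -0.44 and 1.11 at 24 h. At 4 h 9 of the 34 were below vehicle and at 24 h 11, and 0 of 34 were at least 2-fold lower at either time. Over all 40, 2 were at least 2-fold lower at 4 h (5%, beside 5.98% of all such regions in the genome) and 4 at 24 h (10%, beside 7.83%). At least 2-fold higher were 0 at 4 h and 2 at 24 h, beside 4.95% and 2.51% in the genome. The medians over the 40 were 0.29 and 0.12, close to 0.25 and 0.15 over all 53781 such regions.

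In the middle range of height, from 25 to 100 in vehicle, 17 joined regions of the 7 genes were in all 3 lists. At 24 h 1 of the 17 was at least 2-fold lower, beside 22.1% of the 13654 such regions in the genome, and at 4 h 0 of 17, beside 12.5%. Their median log2 height at 24 h was -0.04, beside -0.17 in the genome. The median vehicle height was 33.1 for the 17 and 38.4 in the genome, so these shares are not matched for height within the range. The 1 region at least 2-fold lower was in the body of IRS1, at chr2:227655730-227657237, about 7 kb inside the gene. It had 118 summit fragments in vehicle, 57 at 4 h and 50 at 24 h (log2 height -0.90 and -1.15). Together with the region at the start, it was the only IRS1 region in all 3 lists.

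**Figure D2:**
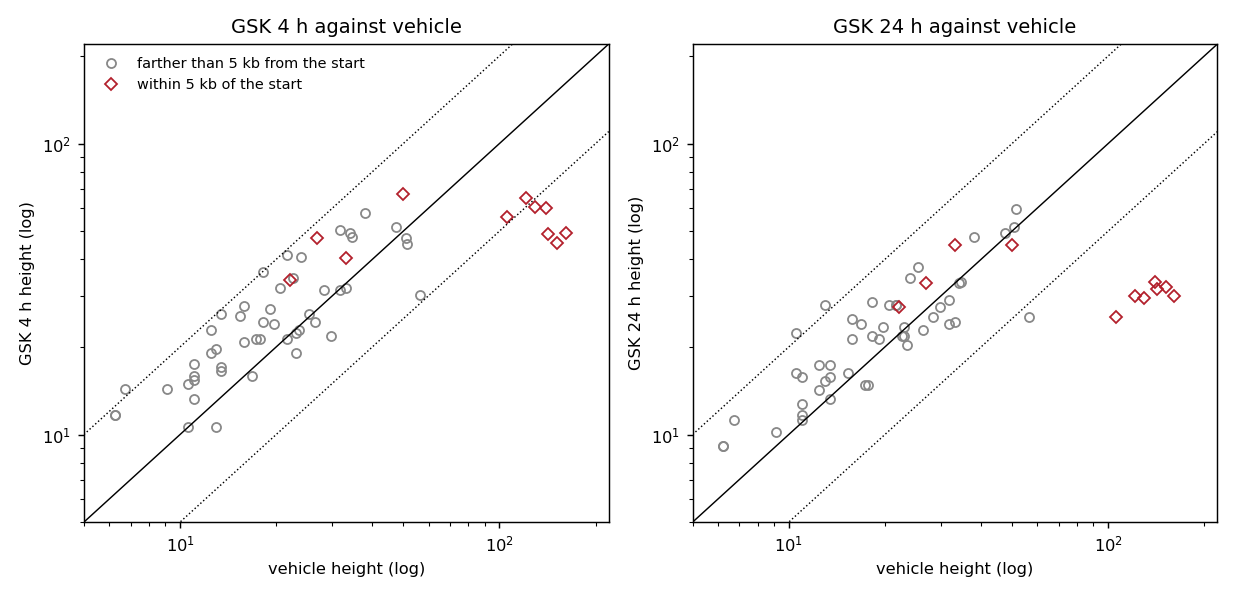
Height of the 60 joined regions of the 7 genes that were in all 3 lists, vehicle (x) against GSK 4 h (left, y) and GSK 24 h (right, y), on log axes. Diamonds mark regions within 5 kb of the gene start, circles those farther away, the solid line equal heights and the dotted lines 2-fold differences. The 7 diamonds with vehicle heights of 106 to 161 lie below the lower dotted line at 24 h, and the 4 diamonds from ERBB2 and ERBB3 lie within the dotted lines.

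The receptor genes carried most of the distant regions. IGF1R, whose body spans 315 kb (chr15:99192761-99507759), had 41 regions in vehicle, 51 at 4 h and 48 at 24 h, and 27 of its 59 joined regions (45.8%) were in all 3 lists, beside 47.9% in the genome. Its highest region at 24 h was chr15:99395790-99396642, 203 kb inside the gene, with 106, 89 and 102 summit fragments, a log2 height of -0.11 (-0.53 to 0.32) and 0.03 (-0.38 to 0.43). At 24 h this internal region (height 51.9) stood above the start (30.0), whereas in vehicle it stood far below it (50.9 against 121). Both of the single-match regions that were at least 2-fold higher at 24 h were also in IGF1R. The region chr15:99230129-99230955 had 27, 37 and 55 fragments (log2 height 0.60 and 1.11), and chr15:99427939-99428733 had 22, 20 and 44 (0.01 and 1.08). The interval at 24 h was 0.42 to 1.83 for the first and 0.31 to 1.89 for the second. Both regions were picked for the highest differences at 24 h among the single-match regions, so these intervals are no test. By the deposited fold the log2 difference at 24 h was 0.30 for the first and 0.64 for the second. Another IGF1R region, chr15:99256701-99257944, had 33, 39 and 49 fragments, with an interval of -0.01 to 1.34 at 24 h. The lowest of the distant IGF1R regions, chr15:99395054-99395631, had 69, 60 and 48 fragments (log2 height at 24 h -0.44, with 0 inside the interval) and lies next to that internal region.

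INSR (chr19:7112266-7294011) had 7, 10 and 9 regions, which formed 8 joined regions, 7 of them in all 3 lists. Its body region chr19:7196918-7199005, 96.0 kb from the start, had 107, 85 and 117 summit fragments and was the highest INSR region at 24 h (height 59.5 against 29.5 at the start). The region chr19:7178446-7180094 had 53, 49 and 74 fragments, a log2 height of 0.03 at 4 h and 0.57 (0.04 to 1.10) at 24 h. Across its distant single-match regions INSR ranged from -0.45 to 0.73 at 4 h and from -0.21 to 0.57 at 24 h, so no INSR region away from the start came near the difference seen at the start.

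**Figure D3:**
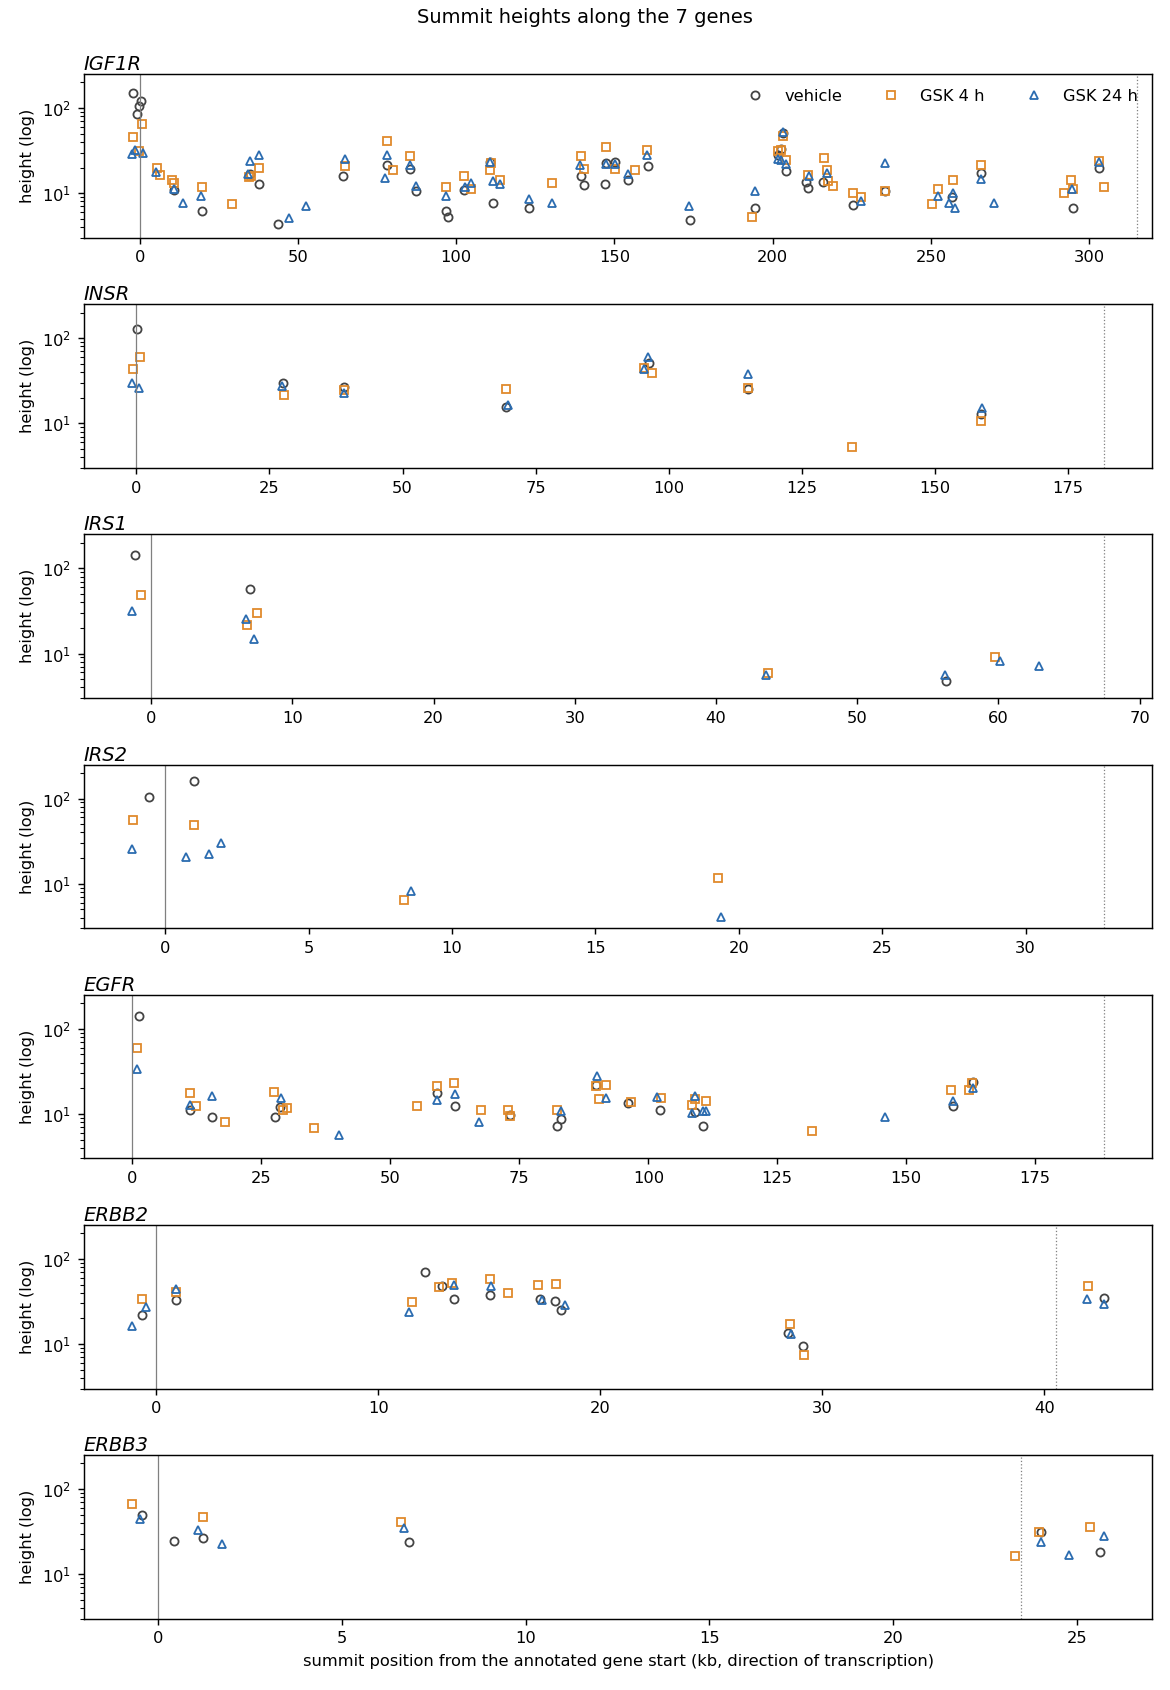
Height (log axis) of every H3K4me2 summit in the windows of the 7 genes, by distance in kb from the gene start in the direction of transcription; circles, squares and triangles are the vehicle, GSK 4 h and GSK 24 h lists. The solid vertical line is the start and the dotted line the end of the gene body. In IGF1R, INSR, IRS1, IRS2 and EGFR the 3 lists part at the start. Along the bodies of IGF1R, INSR and EGFR they mix, as at the IGF1R region 203 kb inside the gene with 106, 89 and 102 summit fragments, whereas the IRS1 region 7 kb inside parts (118, 57 and 50) and IRS2 has no vehicle summit away from its start.

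EGFR (chr7:55086725-55275031) had 17 regions in vehicle, 27 at 4 h and 19 at 24 h. Among IGF1R, EGFR and ERBB2, the genes with over 10 vehicle regions, this was the largest gain at 4 h relative to vehicle. IRS1 (3 to 5) and IRS2 (2 to 4) gained relatively more, from few regions. Of its 34 joined regions, 9 were in all 3 lists (26.5%, 95% Wilson interval 14.6 to 43.1%), beside 47.9% in the genome and 48.4% on chromosome 7. Another 11 were called at GSK 4 h only (32.4%, interval 19.1 to 49.2%), beside 14.5% in the genome, and these shares were not tested. The intervals treat neighbouring EGFR regions as independent and hold no replicate error, so they are no test against the genome. Those 11 had 12 to 36 summit fragments (median 22), near the median summit of 21 over the whole GSK 4 h list. The region chr7:55195440-55195969 had 22, 28 and 32 fragments (log2 height 0.50 and 0.62), and its interval at 24 h, -0.20 to 1.48, included 0. The 8 distant single-match EGFR regions had a median log2 height of 0.49 at 4 h and 0.29 at 24 h.

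ERBB2 (chr17:37844393-37884915) had the most H3K4me2 regions per 100 kb of the 7 genes, with 12, 12 and 11 regions, or 23.8, 23.8 and 21.8 per 100 kb. The genome held 3.23, 4.14 and 4.11 per 100 kb, and the 7 windows together 9.57, 12.5 and 11.6. Its highest vehicle summit was not at the gene start but 12 kb inside the body, at chr17:37856274-37856644, with 146 fragments (height 70.1), and neither GSK list had a region there. The nearest regions of the GSK lists lay on either side, chr17:37855555-37856098 with 58 fragments at 4 h and 47 at 24 h and none called in vehicle, and chr17:37856838-37857936 with 99, 97 and 97. Absence from a list says that no region was called there, and not that there was no signal. Whether chr17:37856274-37856644 lies at the promoter inside the ERBB2 gene body mentioned above was not looked up. The other ERBB2 body regions in all 3 lists had 28 to 79 fragments in vehicle, 32 to 109 at 4 h and 26 to 94 at 24 h. The region past the gene end, chr17:37885725-37887344, had 72, 90 and 66 fragments and lies toward the neighbouring gene MIEN1.

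ERBB3 (chr12:56473809-56497291), the shortest of the 7 gene bodies at 23.5 kb, had 6, 6 and 7 regions, and 5 of its 6 joined regions were in all 3 lists. The region just inside the start, chr12:56473992-56475759, had 56, 89 and 65 summit fragments, a log2 height of 0.82 (0.32 to 1.32) at 4 h and 0.30 (-0.24 to 0.84) at 24 h. The body region chr12:56480145-56481219 had 50, 77 and 68 fragments (0.77 and 0.53). In both, GSK 4 h stood highest and vehicle lowest. Of the regions past the gene end, toward PA2G4, chr12:56497444-56498139 had 66, 59 and 47 fragments and chr12:56498410-56499756 had 38, 68 and 56.

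The adaptor genes had few regions and gained some of low height. IRS1 (chr2:227596033-227663506) had 3, 5 and 7 regions and IRS2 (chr13:110406184-110438914) 2, 4 and 6. Part of the increase came from vehicle regions divided in the GSK lists, since the 6 regions of IRS2 at 24 h fell into 4 joined regions. IRS1 and IRS2 each had 2 joined regions present in both GSK lists and not in vehicle. These held 11 to 17 summit fragments for IRS1 and 8 to 22 for IRS2, under 1 in 10 of the fragments at their own vehicle start sites. Examples are chr13:110430228-110430892 in IRS2, with 12 and 16 fragments, and chr2:227619664-227620139 in IRS1, with 11 in each list. In IGF1R, chr15:99322724-99323268 was likewise in both GSK lists only, with 25 and 15 fragments.

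**Figure D4:**
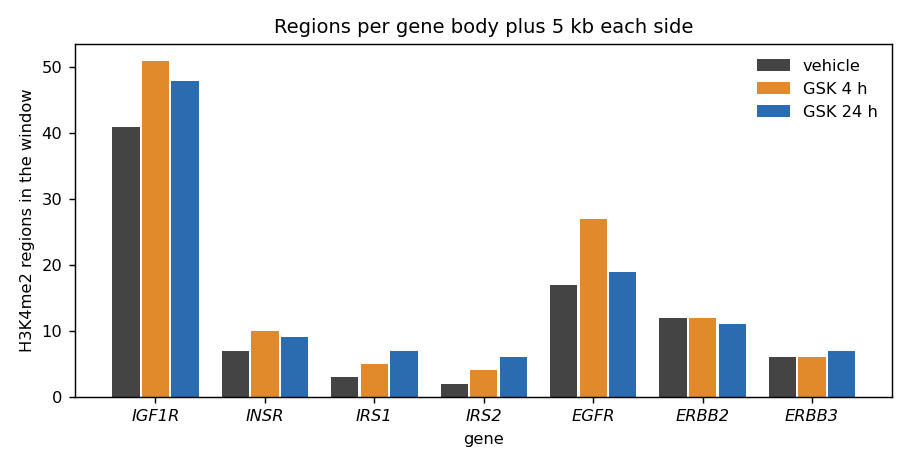
Number of H3K4me2 regions in the window of each gene (gene body plus 5 kb on each side) in the vehicle, GSK 4 h and GSK 24 h lists, 1 list per group. IGF1R held 41, 51 and 48 regions and EGFR 17, 27 and 19, while ERBB2 and ERBB3 varied by at most 1.

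In number, the 7 windows gained regions about as the genome did. The count was 1.31 times that of vehicle at 4 h and 1.22 times at 24 h, beside 1.28 and 1.27 times for the genome. With the lists limited to an equal number of regions with the highest -log10 p-values, the windows held 88, 94 and 91. Of the 129 joined regions, 60 were in all 3 lists, which is 46.5% (95% Wilson interval 38.1 to 55.1%) beside 47.9% of all joined regions. Another 14 were in both GSK lists only (10.9% beside 11.0%), and 5 in the vehicle list only (3.88% beside 5.45%). The vehicle-only regions included the ERBB2 region 12 kb inside the gene, chr15:99191774-99192092 just upstream of IGF1R (178 fragments), chr7:55182675-55182935 in EGFR (28 fragments) and chr15:99366641-99366861 in IGF1R (10 fragments). Those found at GSK 4 h only numbered 24 (18.6% beside 14.5%) and those at GSK 24 h only 11 (8.53% beside 14.3%). Of the 61 joined regions with a single vehicle region and a GSK 24 h counterpart, 10 were divided at 24 h (16.4%, beside 9.0% in the genome), and at 4 h 7 of 58 (12.1% beside 10.8%). No test was made of these shares.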

How the data were processed

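H3K4me2 ChIP-seq of 6 LNCaP samples (3 groups of 2 replicates) was used as deposited, 1 narrowPeak list per group made from both replicates by the authors. Their processing notes name BWA 0.7.2-r351, SAMtools 0.1.18, MACS2 2.0.10.20131216 and hg19. In the deposited lists each region has a fold enrichment (a ratio over local background), a -log10 p-value and -log10 q-value, and a display score of about 10 times the latter. None is normalised between lists.

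From fold and p-value, a whole summit pileup was recovered under a Poisson model (fold = (pileup + 1)/(background + 1)) for 99.998% of vehicle regions and 100% of both GSK lists, within 0.001 on the -log10 p scale. The step was checked on folds and p-values simulated from recovered vehicle pileups with the same formula. That check tests the inversion, not whether the deposited values follow this model. The inferred fragment lengths were 221, 186 and 219 bp and the depths 9.43, 10.1 and 8.98 tags per kb for vehicle, GSK 4 h and GSK 24 h. Depth limits precision, so 95% exact Poisson intervals are given for summits and exact conditional intervals for log2 ratios of heights. The highest pileups lay just under 2 fragment lengths, as when duplicates are removed, so strong summits are compressed, and the limit is lowest in the GSK 4 h list.

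Regions were joined across lists at an overlap of 1 bp or more, and a height was called lower or higher past a 2-fold difference, with no test. Gene starts are the 5′ ends of the hg19 gene bodies by strand. Per gene, the start region, the highest vehicle and GSK 24 h regions, the 5 lowest and 5 highest matched differences, and 3 regions each of both GSK lists only and vehicle only were to be named, and others were named after their values were seen. The genes, windows and lists were chosen with earlier results of these data known. Promoter sequences are from RefSeq (GRCh38.p14), matched by symbol for 6 of 7 genes. Not found there: ERBB3. Exon and intron positions, other pathway genes and cell type markers were not analysed here for want of an hg19 annotation. Python 3.11.15, pandas 2.3.3, NumPy 2.4.6, SciPy 1.17.1 and matplotlib 3.10.9 were used.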

Additional observations from a re-analysis of the deposited data

How the results depend on the processing

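No paired analysis was possible because each group has 1 list made from both replicates, and for the same reason no replicate could be left out. The number of regions in the 7 windows held within 1.5 times under 6 of 7 alternatives, and was 44, 57 and 47 in the vehicle, GSK 4 h and GSK 24 h lists at a -log10 q-value of at least 10. The share of joined regions in all 3 lists was 55.9% at that threshold and 36.4% when both regions had to overlap by 50%. The count of start-site summits at least 2-fold lower was 0 of 7 at 4 h and 0 of 7 at 24 h by the deposited fold, which by construction divides by the signal in the surrounding 10 kb. By tags in 10 kb it was 1 of 7 at 4 h. With regions overlapping the start itself, 2 genes had a region in both lists and 1 of 2 was 2-fold lower at 24 h, since fewer genes could be compared. The deposited fold and the tags in 10 kb were added after seeing the data. The deposited fold reversed the log2 difference at the IRS2 start at 4 h (0.0177) and at the upstream IRS2 region at 24 h (0.52, and 2.85 by the percentile of the fold in its list). Of the values that answer a comparison, 39 held under the alternatives and 9 moved; of the single-region values, 46 held, 29 moved and the 3 above reversed. Regions of few fragments have wide counting intervals, and many differences at such regions could not be told from counting error.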
